A study of Passer montanus with 72 samples.

Results

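The caudal and rostral parts of the hippocampus were compared within female Eurasian tree sparrows (Passer montanus), captive songbirds that had been caught in the wild. RNA was sequenced from both parts of each of 10 females, which gave 20 of the 72 libraries of the study. The birds were chosen by their sex label and by their counts of CHD1W, a gene on the female-limited W chromosome, and the libraries were paired by bird number. Bird 260 carries the same label but was left out because its 3 libraries hold 0 counts of CHD1W. The 20 libraries used hold 101 to 205 CHD1W counts each, and male libraries hold at most 3. These counts chose the birds and are no result. The series' design text speaks of a dorsal part where the sample labels speak of a caudal one, and the labels' term is used here. The labels name no treatment, and give neither age nor behaviour for any bird. The 13 males of the study, and the striatum of the same females, serve below only to show where a difference in females stood.

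The avian hippocampus lies along the dorsomedial edge of the forebrain and, like that of mammals, takes part in spatial memory and in the response to novelty and stress. In birds its rostral and caudal ends are often set against the dorsal and ventral ends of the rodent hippocampus, whose neurons differ in transcription factors, receptors and connections. The hippocampus borders the lateral ventricle, which ciliated ependymal cells line, and the choroid plexus and septum lie near it.

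The tissue labels were checked against defining genes, as CPM, counts scaled to a common total per library. NEUROD1, a transcription factor of pallial excitatory neurons, had a median of 59.3 CPM in caudal and 52.9 CPM in rostral hippocampus but 0.129 CPM in striatum. The dopamine receptor gene DRD2 ran the other way, at 0.774, 1.68 and 101 CPM. Both hippocampal parts thus differed from the striatum in the direction of their labels. The caudal libraries held 2629433 to 4179628 counts (median 3428327) and the rostral ones 3422268 to 4973555 (median 4084415), and the caudal library was the shallower one in 8 of 10 birds. Birds 4 and 14 stood apart from the rest: their caudal minus rostral differences over all genes correlated at 0.250 and 0.337 with the mean of the other birds, against 0.474 to 0.720 for the other 8 birds. Some results are also given without these birds.

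Of 8834 genes with enough counts to test, 3587 (40.6%) differed between the parts at an adjusted p under 0.05 (edgeR's quasi-likelihood test with bird as a block, Benjamini-Hochberg adjustment over all genes). In the caudal part 1773 genes (20.1%) were higher and 1814 (20.5%) were lower. These shares are the background against which the counts of every gene group below should be read. Most differences were small: 389 called genes differed by at least 1 on the log2 scale, 163 of them higher and 226 lower. That count was 626 without birds 4 and 14 and 220 with a count minimum of 30 in place of 10. The median size of a difference was 0.30 over all genes and 0.55 over called genes, on the log2 scale. In 1137 genes (12.9%) all 10 birds differed in the same direction, and 1121 of these were called. The 10 caudal values did not overlap the 10 rostral ones in 125 genes (1.41%), 51 higher and 74 lower in the caudal part.

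**Figure D1:**
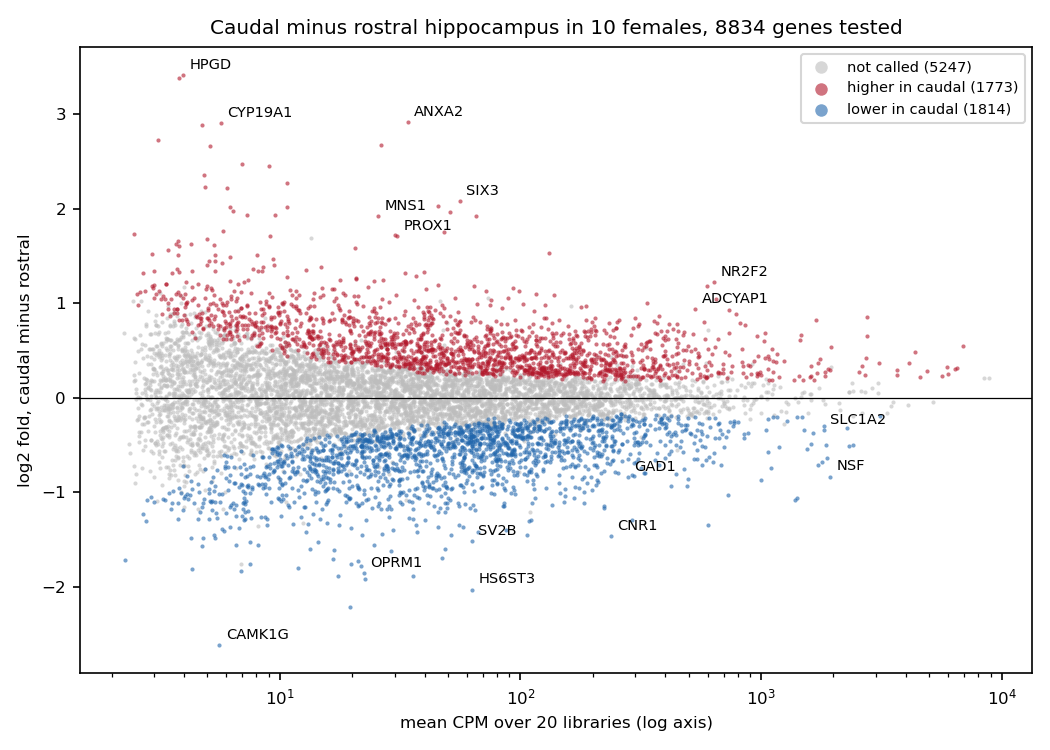
Each point is 1 of the 8834 genes tested, with the mean CPM over the 20 libraries on the horizontal log axis and the log2 fold of caudal over rostral hippocampus on the vertical axis; red and blue mark the 1773 genes called higher and the 1814 called lower. Differences beyond 2 on the log2 scale lie mostly on the upper side, with 18 genes higher and 3 lower.

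In bulk tissue, fewer cells of a type and less RNA per cell cannot be told apart, which holds for every level below. Levels of named genes are CPM after TMM scaling of library size, over 10 birds a part, and log2 differences are caudal minus rostral with their standard error (SE). Calls also moved with gene length. With the tested genes in 5 equal classes of gene model length, in the shortest class, 83 to 2036 bases, 36.3% of genes were higher in the caudal part and 3.68% lower, while in the longest class 17.9% were higher and 29.2% lower. Where a named gene's call changed when the length trend of each library was removed, that value is given. Counts of a gene list with the trend removed are given for some lists only. A list of long genes should also be read against the shares of the longer classes, not only against those over all genes.

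The gene with the smallest p-value was LOC100232212, annotated as the hexokinase HKDC1, an enzyme that phosphorylates glucose. The 10 caudal libraries held 29.9 to 64.3 CPM of LOC100232212 (median 44.6), and the 10 rostral ones 4.11 to 9.70 CPM (median 6.73). The groups did not overlap, and all 10 birds were higher in the caudal part. The log2 difference was 2.68 ± 0.16 with adjusted p = 7.02e-09. PROX1, the homeobox factor that marks granule cells of the mammalian dentate gyrus, was next. In the caudal part PROX1 ran from 25.0 to 70.9 CPM, with a median of 46.1, and in the rostral part from 8.33 to 27.1 CPM, with a median of 12.3. Every bird was higher in the caudal part, although the highest rostral value reached above the lowest caudal one, and the log2 difference was 1.70 ± 0.12 with adjusted p = 6.93e-08. NR2F2 encodes COUP-TFII, an orphan nuclear receptor. Median levels of NR2F2 were 934 CPM caudally, over a range of 558 to 1105 CPM, and 363 CPM rostrally, over 327 to 465 CPM. Those ranges did not overlap, with a log2 difference of 1.23 ± 0.10 and adjusted p = 1.02e-06. NFIA, a nuclear factor I gene of glial and hippocampal development, and the cilium and flagellum gene MNS1 also had separate ranges, with log2 differences of 0.82 ± 0.08 and 1.92 ± 0.18. ISYNA1, which encodes the enzyme that makes inositol phosphate from glucose phosphate, differed by 1.16 ± 0.11.

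Among the largest increases toward the caudal part were genes that were close to 0 in the rostral part. FOXJ1, the master regulator of motile cilia, was among them. Caudal libraries had 4.63 to 10.4 CPM of FOXJ1 and rostral libraries 0 to 2.78 CPM, with medians of 6.43 and 0.422 CPM. The ranges were separate, and the log2 difference of FOXJ1 was 3.37 ± 0.51 (adjusted p = 5.24e-05). Among the named genes only HPGD, which encodes a prostaglandin-degrading dehydrogenase, had a larger increase. A gene near 0 in 1 part is tested only if the libraries of the other part reach the count minimum. Separate ranges of such a gene are therefore largely set by the filter and are no added support. HPGD levels were 1.67 to 9.96 CPM in the caudal libraries, with a median of 7.17, and 0 to 9.35 CPM in the rostral ones, with a median of 0.249. One rostral library lay within the caudal range, all 10 birds were higher in the caudal part, and the log2 difference was 3.41 ± 0.59 (adjusted p = 2.29e-04). Without bird as a block it was 2.44, and with DESeq2 4.02. ANXA2, an annexin that binds membranes in a calcium-dependent way, had a more abundant signal. The 10 caudal libraries held 34.3 to 101 CPM of ANXA2 (median 57.2), and the 10 rostral ones 0.727 to 20.0 CPM (median 8.73). These ranges were separate, with a log2 difference of 2.92 ± 0.36 and adjusted p = 1.23e-04. The 12 largest increases were taken by the naming rule given with the processing below. Its remaining genes included CYP19A1, which is described below, RGS22 at 2.73, the cone transducin gene GNAT2 at 2.66 and the hyaluronan receptor gene LYVE1 at 2.48. The irritant-sensing channel gene TRPA1 was at 2.45, the Krüppel-like zinc finger gene GLIS1 at 2.36 and the melanosome transport gene MLPH at 2.27. CPAMD8 was at 2.23 and TMEM233 at 2.21, all on the log2 scale. All of these remaining genes were higher in the caudal part in all 10 birds, except TMEM233, which was higher in 9. The naming rule required at least 9 birds on the same side, so this agreement, and that of HPGD, is no added support. In GLIS1 bird 14 lay apart from the other birds.

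Genes of ependyma and motile cilia were more often higher than lower in the caudal part. Of 10 tested, 6 were higher and 2 lower, and the median log2 difference was 0.81, against 0.01 over all genes tested. Another 19 listed genes had too few counts to be tested. Low-level members such as FOXJ1 passed the count filter through the caudal libraries, where they were higher. The counts and the median of this list are tilted by the filter and are no separate support. Beside FOXJ1, the ciliary gene CFAP44 was at 5.70 to 17.5 CPM (median 11.2) in the caudal and 1.45 to 5.83 CPM (median 2.12) in the rostral part, a log2 difference of 1.94 ± 0.26. The dynein heavy chain gene DNAH5 differed by 1.63 ± 0.39, and VIM, the intermediate filament gene of radial glia and ependyma, by 1.18 ± 0.16. PROM1, a gene of membrane protrusions, and the ciliary transcription factor gene RFX3 were lower, at -0.61 and -0.48, and the call of RFX3 was lost under 5 of 21 alternatives, including the removal of the length trend (-0.37, adjusted p = 0.0643). The summed level of the list's markers ran from 555 to 1650 CPM in the caudal and from 358 to 1022 CPM in the rostral part, and 9 of 10 birds were higher in the caudal part (mean log2 difference 0.70 ± 0.40 SD, n = 10, exact sign-flip permutation test, adjusted p = 0.0182). VIM, which also marks radial glia, was the most abundant marker in this sum. Of the listed markers, 8 had 0 counts in all 20 libraries, among them DNAI2, DNAH11, CETN2 and TEKT2. TTR, the transthyretin gene that choroid plexus expresses at high levels, had too few counts to be tested, with 5 to 177 counts in the caudal libraries (median 16.5) and 0 to 9 in the rostral ones. The difference of the summed choroid plexus markers did not pass the test (mean log2 difference -0.25 ± 0.48 SD, n = 10, exact permutation test, adjusted p = 0.169), was 0.16 with the mean log2 over the markers in place of their sum, and the markers KCNJ13, CLIC6 and KRT18 were at 0 in all libraries. ENPP2 was the most abundant gene of the choroid plexus sum. Of 7 tested choroid plexus markers 1 was higher and 2 were lower. AQP1 was the higher one and stayed called under all 21 alternatives, at 1.05 to 1.48. The lower ones, ENPP2 and KL, lost their calls under 10 and 7 alternatives, ENPP2 also with the length trend removed (-0.29, adjusted p = 0.1105). What part ventricular lining in the samples had in the results above was not tested.

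The largest decrease toward the caudal part was in CAMK1G, a calcium and calmodulin-dependent protein kinase gene. In the caudal part CAMK1G ran from 0 to 3.22 CPM, with a median of 1.25, and in the rostral part from 3.46 to 21.3 CPM, with a median of 9.15. The groups did not overlap, which the count filter favours in a gene this low in 1 part, as for FOXJ1. The log2 difference was -2.61 ± 0.39 with adjusted p = 6.30e-05. HS6ST3, which encodes a heparan sulfate 6-O-sulfotransferase, was the gene with the third largest decrease, after OTULINL at -2.20. Median levels of HS6ST3 were 22.2 CPM caudally, over a range of 13.5 to 48.4 CPM, and 99.4 CPM rostrally, over 44.6 to 157 CPM. The ranges overlapped, but every bird was lower in the caudal part, with a log2 difference of -2.03 ± 0.22 (adjusted p = 3.73e-05). By the same naming rule, the 12 largest decreases also included the mannosidase gene MAN1A1 at -1.91, and OPRL1 and OPRM1, described next. The remaining ones were the potassium channel subunit gene KCNG3 at -1.88, SLC35D3 at -1.83 and the globin gene CYGB at -1.78. RASL10B was at -1.76, SCUBE1 at -1.72 and IFFO2 at -1.71. As the naming rule required at least 9 birds on the same side, the agreement of birds in HS6ST3 and OPRM1 is no added support. In CYGB bird 18 lay apart from the other birds. Among the genes with the smallest p-values, PHACTR1, a regulator of actin and protein phosphatase 1, was lower with a log2 difference of -0.89 ± 0.08, and EFR3A, which anchors a lipid kinase at the membrane, at -0.77 ± 0.07. Neither gene's caudal and rostral values overlapped.

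**Figure D2:**
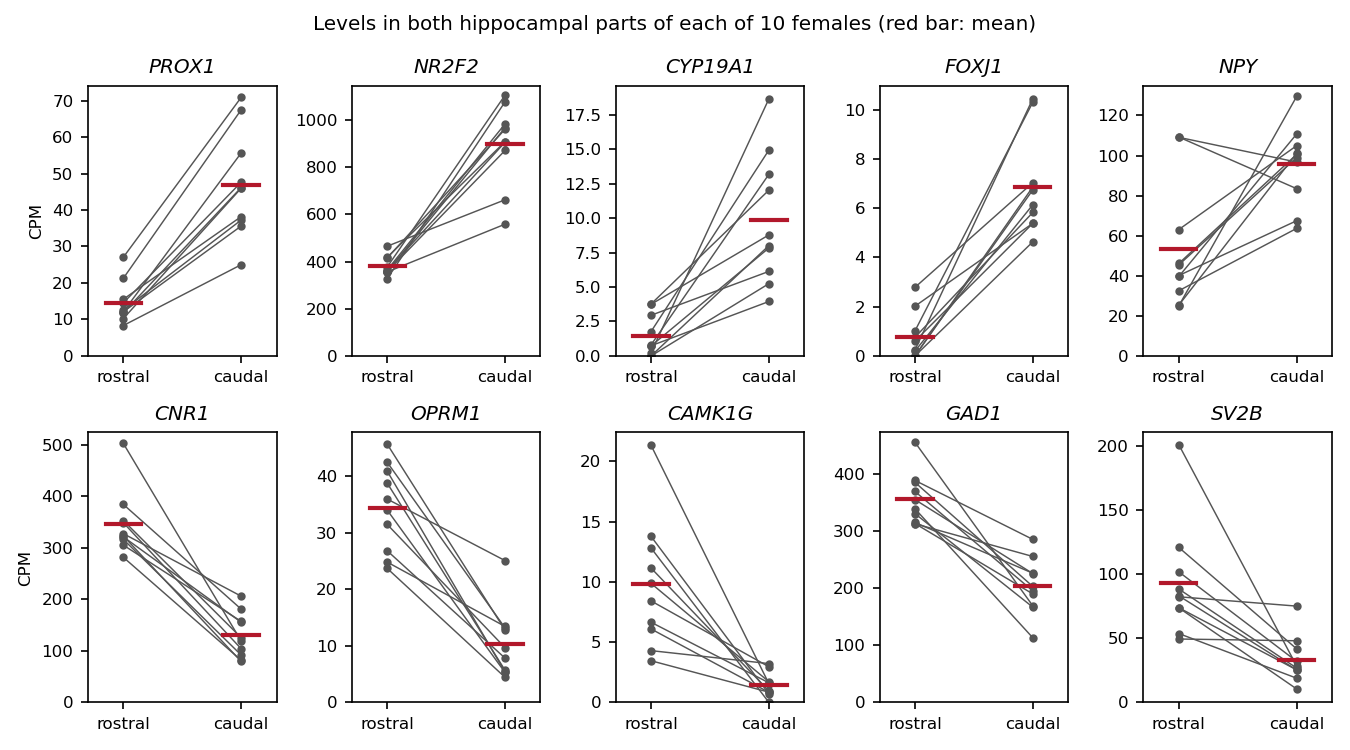
Each panel shows 1 gene in CPM on a linear axis that starts at 0, with a line joining the rostral and the caudal library of each of 10 females and a red bar at the mean. PROX1, NR2F2, CYP19A1 and FOXJ1 lie higher in the caudal library in all birds and CNR1, OPRM1, CAMK1G, GAD1 and SV2B lower in all birds, while NPY is higher in 8.

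Genes of opioid and endocannabinoid signalling were lower in the caudal part or not called. Of 10 tested, 5 were lower and 0 higher, with a median log2 difference of -0.61. Receptor genes made up 4 of the 5. The list's median was negative in each of the 10 birds, from -0.36 to -1.46. That was not particular to this list. The medians of the monoamine and acetylcholine, glutamate, GABA and glycine, and peptide receptor lists were also negative in every bird. CNR1 encodes the CB1 cannabinoid receptor, which in mammals sits on axon terminals and restrains transmitter release. Caudal libraries had 79.5 to 206 CPM of CNR1 and rostral libraries 282 to 503 CPM, with medians of 122 and 325 CPM. The highest caudal value was below the lowest rostral one, with a log2 difference of -1.46 ± 0.13 and adjusted p = 2.41e-06. For OPRM1, the mu opioid receptor gene, caudal levels were 4.44 to 25.1 CPM (median 8.76) and rostral ones 23.7 to 45.7 CPM (median 35.0). One caudal value fell within the rostral range, all 10 birds were lower in the caudal part, and the log2 difference was -1.85 ± 0.21 (adjusted p = 1.45e-05). The nociceptin receptor gene OPRL1 had a log2 difference of -1.89 ± 0.22 and ran from 8.78 to 34.1 CPM (median 13.6) in the caudal part and 24.6 to 83.9 CPM (median 55.5) in the rostral part. DAGLA, which encodes the lipase that makes the endocannabinoid 2-arachidonoylglycerol, had a log2 difference of -0.97 ± 0.13. The kappa opioid receptor gene OPRK1, named after its values were seen as the only other called member, had a log2 difference of -1.28 ± 0.29. Opioid peptide genes gave little to compare: PDYN, POMC and PNOC were below the count filter.

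Transcription factors that pattern the hippocampus or mark its caudal or septal side were split. Of 33 tested, 11 were higher in the caudal part and 6 lower, with a median of 0.21. Higher were PROX1, NR2F2 and NFIA, given above, and SIX3, a homeobox gene of the septum and ventral forebrain. SIX3 levels were 43.0 to 129.6 CPM in the caudal libraries, with a median of 91.9, and 3.29 to 38.2 CPM in the rostral ones, with a median of 22.1. The groups did not overlap, with a log2 difference of 2.07 ± 0.35 and adjusted p = 0.00130. ZBTB20, which in mice is needed for hippocampal pyramidal neuron identity, was at 19.0 to 42.0 CPM (median 35.6) in the caudal and 10.0 to 41.5 CPM (median 18.9) in the rostral part and was higher in 9 of 10 birds, a log2 difference of 0.80 ± 0.15. The projection neuron gene FEZF2 was lower at -0.54. Of 22 genes that mark one or the other end of the mammalian hippocampal long axis, 5 were higher and 7 lower, with a median of -0.08. Markers of both ends are pooled here, so these values give no direction along the axis. Which end each member marks was not compared with its direction. DCN, CAMK2D and HTR2C, called members of this list, were lower and stayed called under all 21 alternatives, with DCN at -1.30 to -0.97. WFS1, a further member of this list, was lower in the caudal part in 9 of 10 birds. The 10 caudal libraries held 34.0 to 102 CPM of WFS1 (median 60.9), and the 10 rostral ones 84.9 to 235 CPM (median 164). Its log2 difference was -1.29 ± 0.17 (adjusted p = 1.01e-04). DLK1, a Notch ligand-like gene, was higher by 1.28 ± 0.17 and the collagen gene COL5A1 by 1.76 ± 0.35, in all 10 birds.

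Septal and cerebellar marker lists, set beside these because SIX3, ZIC2 and CBLN1 belong to them, did not pass the test in their summed level. The septal sum ran from 512 to 911 CPM in the caudal and from 544 to 804 CPM in the rostral part and was higher in 5 of 10 birds (mean log2 difference -0.0017 ± 0.32 SD), with CHAT at 0 in all libraries. With the mean log2 over the markers the septal difference was 0.29, and the cerebellar one 0.24 and past the threshold. The cerebellar sum ran from 1815 to 2417 and from 1733 to 2349 CPM (adjusted p of the exact permutation test 0.984 for septal and 0.440 for cerebellar markers), with PCP2 at 0. Of the tested septal markers 3 of 8 were higher and 2 lower, and of the cerebellar ones 4 of 12 and 2.

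Genes of GABAergic neurons did not move as one group. The genes for making and loading the transmitter were lower in the caudal part. GAD1, which encodes the larger glutamate decarboxylase, had separate ranges. In the caudal part GAD1 ran from 113 to 286 CPM, with a median of 199, and in the rostral part from 313 to 456 CPM, with a median of 347. The log2 difference was -0.84 ± 0.11 with adjusted p = 3.43e-05. The second decarboxylase gene, GAD2, was lower at -0.59 ± 0.08, with overlapping ranges, and SLC32A1, the vesicular GABA transporter gene, at -0.49 ± 0.09, without overlap. The interneuron peptide genes ran the other way. Median levels of NPY were 99.8 CPM caudally, over a range of 63.6 to 129 CPM, and 42.8 CPM rostrally, over 25.0 to 109 CPM. NPY, which encodes neuropeptide Y, was higher in the caudal part in 8 of 10 birds, with a log2 difference of 0.98 ± 0.23 and adjusted p = 0.00599. The call was lost with the length trend removed, when the difference was 0.50 (adjusted p = 0.0617). For SST, the somatostatin gene, caudal levels were 418 to 842 CPM (median 500.5) and rostral ones 257 to 726 CPM (median 317). SST was higher in 9 of 10 birds, with bird 22 apart from the others, at a log2 difference of 0.62 ± 0.16 (adjusted p = 0.00810), and 0.17 with the length trend removed (adjusted p = 0.444). Of the 23 tested markers of GABAergic interneurons, 4 were higher and 7 lower, and their summed level was 3388 to 3956 CPM in the caudal and 3721 to 4602 CPM in the rostral part, lower in 9 of 10 birds (mean log2 difference -0.13 ± 0.14 SD, exact permutation test, adjusted p = 0.0319).

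Other neuropeptides and their receptors differed in opposite counts. Of 15 peptide genes tested 5 were higher and 2 lower, which became 3 higher and 6 lower with the length trend removed. ADCYAP1 encodes PACAP, a peptide of the stress response. Caudal libraries had 566 to 919 CPM of ADCYAP1 and rostral libraries 304 to 428 CPM, with medians of 688 and 376 CPM. The ranges were separate, and the log2 difference was 0.94 ± 0.09 with adjusted p = 2.87e-06. Its receptor gene ADCYAP1R1, named here as the partner of ADCYAP1 after its values were seen, was lower in the caudal part, with a mean of 60.2 ± 30.1 CPM (SD) against 153 ± 37.4 CPM and a log2 difference of -1.45 ± 0.26. CBLN1, the cerebellin gene of synapse organisation, was higher by 1.32 ± 0.26, and CBLN2 was lower at -1.26 ± 0.22, with bird 22 apart from the other birds. Of 15 peptide receptor genes 0 were higher and 7 lower, with a median of -0.24. The neurotensin receptor gene NTSR1 had separate ranges. NTSR1 levels were 18.2 to 91.3 CPM in the caudal libraries, with a median of 45.5, and 96.8 to 155 CPM in the rostral ones, with a median of 124. Its log2 difference was -1.40 ± 0.20, that of the bombesin-like receptor gene BRS3 was -1.01 ± 0.14, and that of the somatostatin receptor gene SSTR1 -0.66 ± 0.12.

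Receptors for classical transmitters were more often lower than higher in the caudal part. Of 22 monoamine and acetylcholine receptor genes, 12 were lower and 1 higher, with a median of -0.47. The adrenergic receptor gene ADRA1D was lower at -0.78 ± 0.17, and the serotonin receptor genes HTR1B and HTR2C at -0.75 ± 0.12 and -0.56 ± 0.12, with bird 22 apart from the others in HTR1B. DRD1, the D1 dopamine receptor gene, was at 56.9 to 93.1 CPM (median 76.3) in the caudal and 69.0 to 124 CPM (median 107) in the rostral part, and its call (log2 difference -0.39 ± 0.14, adjusted p = 0.0319) was lost under 8 of 21 alternatives, among them the removal of the length trend (-0.30, adjusted p = 0.111) and leaving out birds 4 and 14 (-0.29, adjusted p = 0.131). The exception was CHRNA4, a nicotinic receptor subunit gene, which was higher in all 10 birds by 1.03 ± 0.21. Of 22 glutamate receptor genes 10 were lower and 2 higher, with a median of -0.21. The NMDA receptor subunit genes GRIN2A and GRIN2B were lower at -0.83 ± 0.12 and -0.79 ± 0.12, the metabotropic GRM8 at -0.59 ± 0.09, and GRIN3A was higher by 0.54 ± 0.13. Of 16 GABA and glycine receptor genes 6 were lower and 1 higher, but their median of -0.04 was near the 0.01 over all genes. Of the lower ones, the glycine receptor subunit gene GLRB had the smallest p-value, at a difference of -0.65 ± 0.09. With the length trend removed, 7 glutamate receptor genes were lower and 4 higher, and 5 GABA and glycine receptor genes were lower and 1 higher.

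Ion channels divided by family member. Of 50 potassium channel genes 15 were lower and 5 higher. KCNG1, a silent modifier subunit, was lower without overlap. The 10 caudal libraries held 252 to 333 CPM of KCNG1 (median 286), and the 10 rostral ones 347 to 494 CPM (median 397). The difference was -0.49 ± 0.07 on the log2 scale, and the A-type channel gene KCND3 was lower at -1.17 ± 0.17. Within the KCNH family of voltage-gated channels KCNH1 was higher by 0.92 ± 0.14, KCNH5 by 1.58 ± 0.30 and KCNH7 by 0.88 ± 0.12, whereas KCNH2, named after its values were seen, was lower at -0.65 ± 0.13. Of 26 calcium, sodium and HCN channel genes 8 were lower and 5 higher, with the share of higher calls near the background. In both channel lists the share of lower calls was above that over all genes but near the 29.2% of the longest class of genes. SCN8A, which encodes the sodium channel of the axon initial segment, had medians of 54.4 CPM in the caudal and 126 CPM in the rostral part (adjusted p = 1.16e-05) and was lower in all 10 birds, and the pacemaker channel gene HCN3 was lower at -1.33 ± 0.26, while CACNG5, an AMPA receptor auxiliary subunit gene, was higher by 1.08 ± 0.26.

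Calcium signalling genes were called often in both directions, 12 higher and 11 lower of 38, with a median of 0.05. Lower beside CAMK1G were PRKCB, a protein kinase C gene, at -1.29 ± 0.15 and CAMK2A, the postsynaptic kinase gene of excitatory neurons, at -1.06 ± 0.14. Higher were RYR2, a calcium release channel gene, at 617 to 1545 CPM (median 1160.1) in the caudal and 433 to 841 CPM (median 611) in the rostral part, and ITPR2, an inositol trisphosphate receptor gene, which differed by 0.99 ± 0.12. NRGN, the calmodulin-binding neurogranin gene, was higher in all birds by 0.97 ± 0.11, a difference that was 0.37 with the length trend removed. Of 43 genes of synaptic vesicles and release 19 were lower and 5 higher, with a median of -0.18. SV2B, a synaptic vesicle glycoprotein gene, was lower in every bird. In the caudal part SV2B ran from 10.5 to 75.0 CPM, with a median of 27.6, and in the rostral part from 49.4 to 201 CPM, with a median of 82.7. Its ranges overlapped, and the log2 difference was -1.51 ± 0.25 with adjusted p = 6.08e-04. NSF, the ATPase that recycles SNARE complexes, was lower at -0.83 ± 0.11 and the synaptotagmin genes SYT13 and SYT6 at -1.62 ± 0.22 and -0.81 ± 0.11. RIMBP2 was higher by 1.01 ± 0.17. Beside these, the summed markers of pallial glutamatergic neurons, which include SV2B, CAMK2A and the synaptic gene C1QL3, were lower in the caudal part in all 10 birds, at 4770 to 6302 CPM against 6269 to 7660 CPM (mean log2 difference -0.29 ± 0.19 SD, exact permutation test, adjusted p = 0.0137). Of 18 tested members 4 were lower and 3 higher, and SLC17A7 was at 0 in all libraries. CAMK2A was the most abundant marker in the sum. The part of these markers in the lower levels of synaptic genes was not tested.

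**Figure D3:**
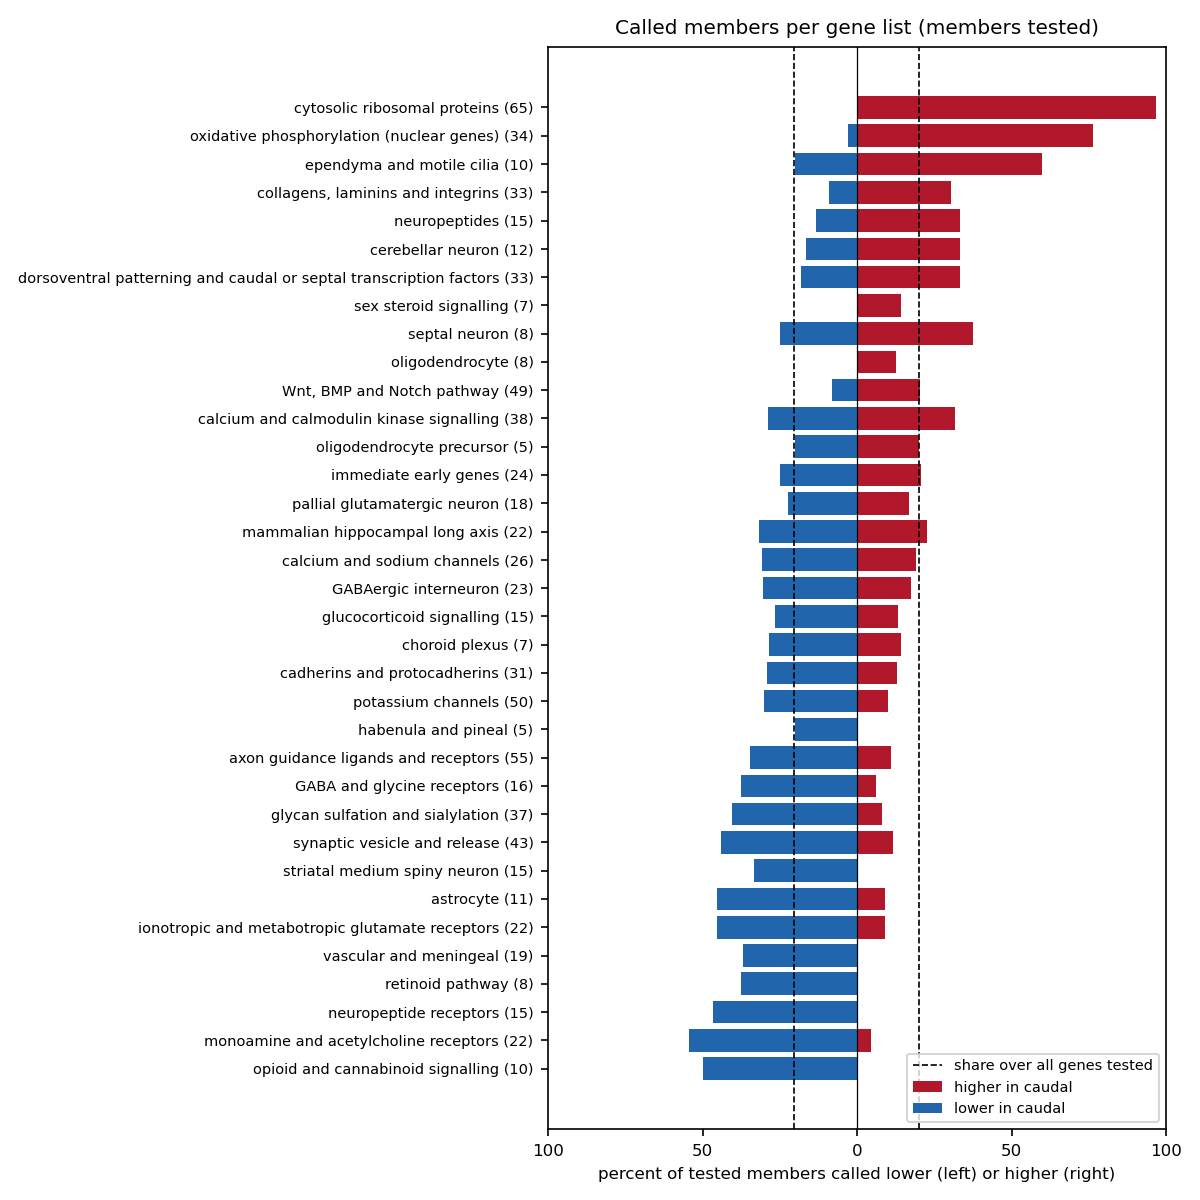
Bars give the percent of tested members of each gene list called higher (red, to the right) or lower (blue, to the left) in the caudal part, with the number tested in parentheses; dashed lines mark 20.1% higher and 20.5% lower over all genes tested. Ribosomal protein genes, 63 of 65 higher, stand at the top and opioid and cannabinoid genes, 5 of 10 lower, at the bottom.

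Among steroid genes, CYP19A1 was the only called member of the 7 sex steroid genes tested. It encodes aromatase, the enzyme that turns androgens into oestrogens and that songbird forebrain expresses at high levels. Median levels of CYP19A1 were 8.39 CPM caudally, over a range of 3.95 to 18.7 CPM, and 0.771 CPM rostrally, over 0 to 3.76 CPM. All caudal values were above all rostral ones, with a log2 difference of 2.90 ± 0.46 and adjusted p = 1.50e-04. As for FOXJ1, the count filter favours such a separation in a gene near 0 in 1 part. The oestrogen receptor gene ESR1 had at most 8 counts in a caudal and 3 in a rostral library and was not tested. Of 15 glucocorticoid signalling genes 2 were higher and 4 lower, shares near or below the background. NR3C1, the glucocorticoid receptor gene, was lower in the caudal part in all 10 birds. Caudal libraries had 55.6 to 86.9 CPM of NR3C1 and rostral libraries 56.4 to 124 CPM, with medians of 68.6 and 105 CPM. The log2 difference was -0.48 ± 0.10 with adjusted p = 8.63e-04. The mineralocorticoid receptor gene NR3C2 was at 228 to 353 CPM (median 285) in the caudal and 192 to 429 CPM (median 225) in the rostral part and was not called (0.21 ± 0.12, adjusted p = 0.161), but was past the threshold with the length trend removed, at 0.36 (adjusted p = 0.0241). FKBP5, a chaperone gene that glucocorticoids induce in mammals, was higher in all 10 birds by 0.86 ± 0.14 (adjusted p = 1.90e-04). FKBP4, a related co-chaperone gene, was lower at -0.93 ± 0.16. Of 8 retinoid pathway genes 3 were lower and 0 higher, namely RXRA, RDH10 and RARB, at -1.14, -0.74 and -0.73, with bird 22 apart in RARB.

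Immediate early genes, which neuronal activity induces, were called at shares close to the background, 5 higher and 6 lower of 24. EGR1 was at 96.2 to 255 CPM (median 201) in the caudal and 106 to 397 CPM (median 173) in the rostral part, higher in 5 birds and not called (-0.09 ± 0.17, adjusted p = 0.730). FOS was higher in 8 birds by 0.49 ± 0.14 (adjusted p = 0.00956), with bird 19 apart from the others and the call lost without the block on bird. NPTX2, the activity-regulated pentraxin gene, was higher in all 10 birds. NPTX2 levels were 344 to 682 CPM in the caudal libraries, with a median of 389, and 155 to 363 CPM in the rostral ones, with a median of 206. Its log2 difference was 1.00 ± 0.11 (adjusted p = 1.16e-05), with bird 13 apart from the others. BDNF, the activity-dependent growth factor gene, was not called (0.20 ± 0.14, adjusted p = 0.281).

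Genes of wiring and cell surface were more often lower than higher in the caudal part. Of 55 axon guidance genes 19 were lower and 6 higher, with a median of -0.19. The semaphorin gene SEMA5A was lower without overlap at -1.71 ± 0.22, the ephrin receptor gene EPHA4 at -0.80 ± 0.10, the semaphorin receptor genes NRP1 and PLXND1 at -0.88 ± 0.13 and -1.08 ± 0.16. SEMA3A, a repulsive ligand gene, and SLIT2, a ligand of Robo receptors, were higher by 0.70 ± 0.14 and 0.83 ± 0.16, and the call of SLIT2 was lost without the block. Of 37 enzymes of glycan sulfation and sialylation 15 were lower and 3 higher, with a median of -0.29. Beside HS6ST3, the N-deacetylase gene NDST1 was lower at -0.79 ± 0.13, the sialyltransferase gene ST3GAL2 at -0.75 ± 0.14 and the extracellular sulfatase gene SULF2 at -0.93 ± 0.18. HS3ST2, a 3-O-sulfotransferase gene, was higher by 1.47 ± 0.28. Of 31 cadherins and protocadherins 9 were lower and 4 higher, with PCDH20 at -0.94 ± 0.13 and CDH8 at -0.53 ± 0.08. Their share of lower calls was near the 29.2% of the longest class of genes.

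Matrix genes were more often higher than lower in the caudal part. Of 33 collagens, laminins and integrins 10 were higher and 3 lower, with a median of 0.23, including the basement membrane collagen gene COL4A5 by 1.24 ± 0.22. Of 49 Wnt, BMP and Notch genes 10 were higher, the background share, and 4 were lower; without birds 4 and 14 the counts were 8 and 8. RSPO3, an amplifier of Wnt signalling, was higher in all 10 birds. The 10 caudal libraries held 47.2 to 175 CPM of RSPO3 (median 119), and the 10 rostral ones 30.1 to 82.8 CPM (median 57.5). The difference on the log2 scale was 0.95 ± 0.13 (adjusted p = 3.86e-05). HES5, a Notch target gene of neural progenitors, was higher by 1.97 ± 0.44, and BMP4, a bone morphogenetic protein gene, was lower at -0.95 ± 0.23.

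Cytosolic ribosomal protein genes were higher in the caudal part almost without exception. Of 65 tested 63 were higher and 0 lower, with a median log2 difference of 0.74, and the 2 others were not called. In the caudal part RPL3 ran from 243 to 377 CPM, with a median of 328, and in the rostral part from 165 to 195 CPM, with a median of 185. For RPL3, a large-subunit gene, the ranges were separate, and the log2 difference was 0.80 ± 0.08 with adjusted p = 2.86e-06. Of 34 nuclear genes of oxidative phosphorylation 26 were higher and 1, the flavoprotein gene SDHA, was lower, with a median of 0.47. ATP5F1D, an ATP synthase subunit gene, was higher in all 10 birds by 0.73 ± 0.10, and by 0.24 with the length trend removed (adjusted p = 0.0281). Both lists moved with gene length. Ribosomal gene models span 338 to 3412 bases, with a median of 617. Among the 3773 genes outside both lists that are no longer than 3412 bases, 24.6% were higher, with a median of 0.15. That set has the same upper limit of length but is not matched in length. In the shortest class, 83 to 2036 bases, without both lists, 33.1% were higher, with a median of 0.26. With the length trend removed 34 of 65 ribosomal genes were higher (median 0.26) and 1 of 34 oxidative phosphorylation genes (median 0.06). RPL3 stayed called at 0.56, whereas ATP5MC3 and COX7A2, further members of the second list, were at 0.06 and 0.10 and lost their calls. The birds also differed. The ribosomal median was -0.00 in bird 4 and 0.02 in bird 14, the birds that stood apart, 0.35 in bird 13 and 0.83 to 1.11 in the other 7, and the median of the shortest length class was -0.07, 0.04 and 0.07 in birds 4, 14 and 13 and 0.27 to 0.50 in the other 7. No source used here states how reads shared by near-identical copies of ribosomal genes were counted. The part of gene length in the results above, beyond the values with the trend removed, was not tested.

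**Figure D4:**
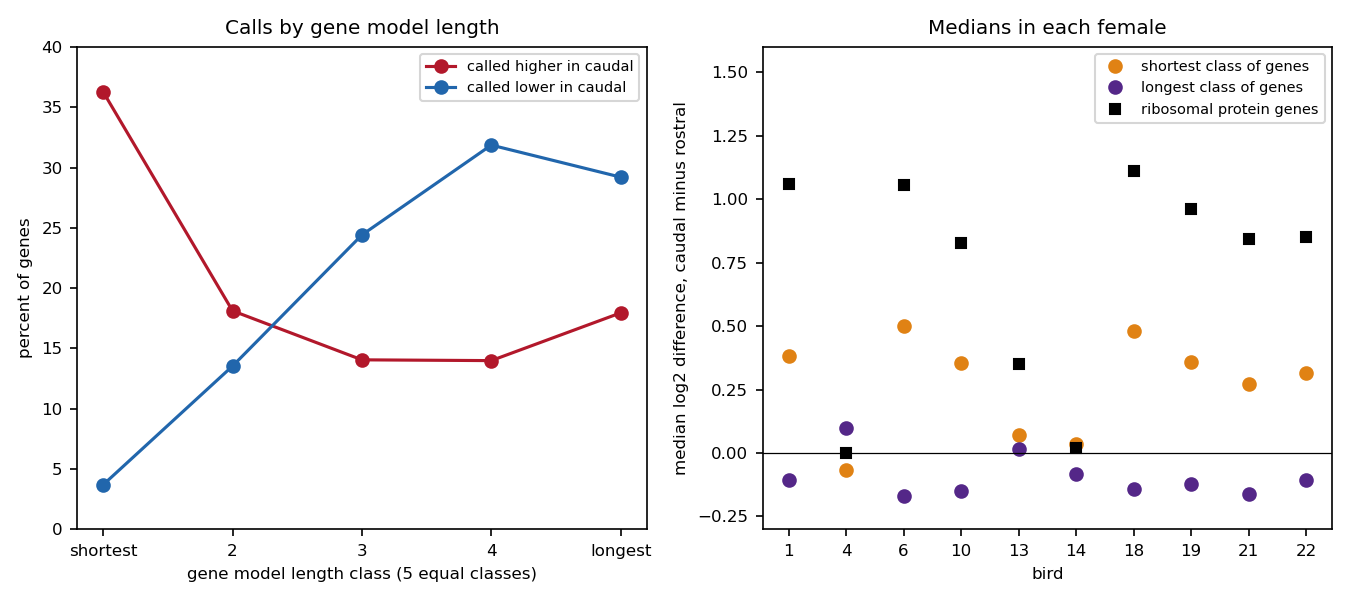
On the left, the percent of genes called higher (red) or lower (blue) in the caudal part in each of 5 equal classes of gene model length; on the right, the median log2 difference, caudal minus rostral, in each bird for the shortest class of genes, the longest class and ribosomal protein genes. Higher calls are 36.3% in the shortest class and 14.0% to 18.1% in the others, and the ribosomal median is close to 0 in birds 4 and 14.

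Called markers of astrocytes and of vessels and meninges were mostly lower in the caudal part. Of 11 astrocyte markers 5 were lower and 1 higher, and the summed level was lower in 9 of 10 birds (5452 to 7430 CPM against 6434 to 8223 CPM, mean log2 difference -0.14 ± 0.16 SD, exact permutation test, adjusted p = 0.0319), with CLU at 0. The glutamate transporter genes SLC1A3 and SLC1A2 were lower at -0.80 ± 0.12 and -0.34 ± 0.07, with bird 21 apart in SLC1A3. FABP7, the fatty acid binding protein gene of radial glia, was higher in 9 of 10 birds. Median levels of FABP7 were 183 CPM caudally, over a range of 90.1 to 310.2 CPM, and 54.4 CPM rostrally, over 27.6 to 194 CPM. On the log2 scale the difference was 1.53 ± 0.25 with adjusted p = 8.07e-04. Of 19 vascular and meningeal markers 7 were lower and 0 higher, with the tight junction gene CLDN5 at -1.06 ± 0.21 and the glucose transporter gene SLC2A1 at -0.51 ± 0.11 and bird 1 apart in SLC2A1. Their summed level, 228 to 387 CPM against 278 to 522 CPM, did not pass (mean log2 difference -0.31 ± 0.44 SD, exact permutation test, adjusted p = 0.0820). PTPRZ1, a receptor phosphatase gene of oligodendrocyte precursors and radial glia, was higher by 0.54 ± 0.08, and the summed precursor markers, which it leads, were higher in all 10 birds (mean log2 difference 0.46 ± 0.23 SD, exact permutation test, adjusted p = 0.0137), while PDGFRA, the receptor that defines these precursors, was lower at -0.45 ± 0.13 and lost its call with the length trend removed (-0.30, adjusted p = 0.0837). Summed markers of oligodendrocytes, microglia and blood cells did not pass (adjusted p 0.444, 0.169 and 0.0664). Of 15 striatal medium spiny neuron markers 5 were lower and 0 higher, with the cyclic nucleotide phosphodiesterase gene PDE10A at -0.78 ± 0.16. Their summed level was 758 to 929 CPM in the caudal and 749 to 1021 CPM in the rostral part and did not pass (adjusted p = 0.0820). DRD2, ADORA2A and ISL1 were too low to test. The sum of habenular and pineal markers was lower in 9 of 10 birds (mean log2 difference -0.22 ± 0.21 SD, exact permutation test, adjusted p = 0.0319), with CRX at 0. LHX9, which is also on the pallial list, was the most abundant gene of this sum. Of its 14 members 9 were too low to test, so the sum is no measure of habenular or pineal tissue. With the mean log2 over the markers in place of their sum, the differences of pallial, GABAergic, astrocyte and habenular markers no longer passed, that of precursors was -0.073, and that of medium spiny neurons passed at -0.32. The part of cell composition in the differences above was not tested.

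Most differences in females had the same direction in males. Of the 3587 genes called in females 3227 (90.0%) had the same direction in the 13 males, 1735 with a call of their own. The share with the same direction over all genes tested was not taken, so the 90.0% has no background beside it. A direct test of the sex by part difference over 9499 genes called 96 (1.01%), 41 more positive and 55 more negative in males, and 72 of the genes called in females (2.01%) were among them. At an unadjusted p under 0.05 there were 1728. Log2 differences of females below come from the fit of the 20 female libraries, and those of males and the tests of the difference from the fit of all 46 hippocampal libraries. NPY differed in direction, with a log2 difference of 0.98 in females and -0.97 in males (edgeR, adjusted p of the difference 0.0214). DLK1 was at 1.28 in females and -0.26 in males (adjusted p of the difference 0.0139). FOXJ1, at 3.37 in females, was at 0.75 in males (adjusted p of the difference 0.0490). RSPO3 was at 0.95 and 0.05 (adjusted p 0.0471). KL, the klotho gene of choroid plexus, was at -0.81 in females, where bird 18 lay apart and the call was lost under 7 alternatives, among them the removal of the length trend (-0.66, adjusted p = 0.0846), and at 2.18 in males (adjusted p 0.0295). WIF1, a secreted Wnt inhibitor gene, was not called in females (0.37) and was at -1.39 in males (adjusted p 0.0163). LOC100232212 was at 2.68 and 1.04 (adjusted p 0.0191): its mean in the caudal part was 46.3 CPM in females and 44.9 CPM in males, and its mean in the rostral part 7.06 and 24.4 CPM, all in the scaling of the 46 libraries. PROX1, NR2F2, CNR1, OPRM1 and CYP19A1 were called in both sexes without a called difference between them, with log2 differences in males of 0.92, 1.72, -1.18, -1.28 and 2.48. The ribosomal median was 0.37 in males, with 37 of 65 members higher. The sexes were sampled from different birds, and the number of genes past the threshold of this test was 178 with limma voom and 247 with bird 260 added.

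**Figure D5:**
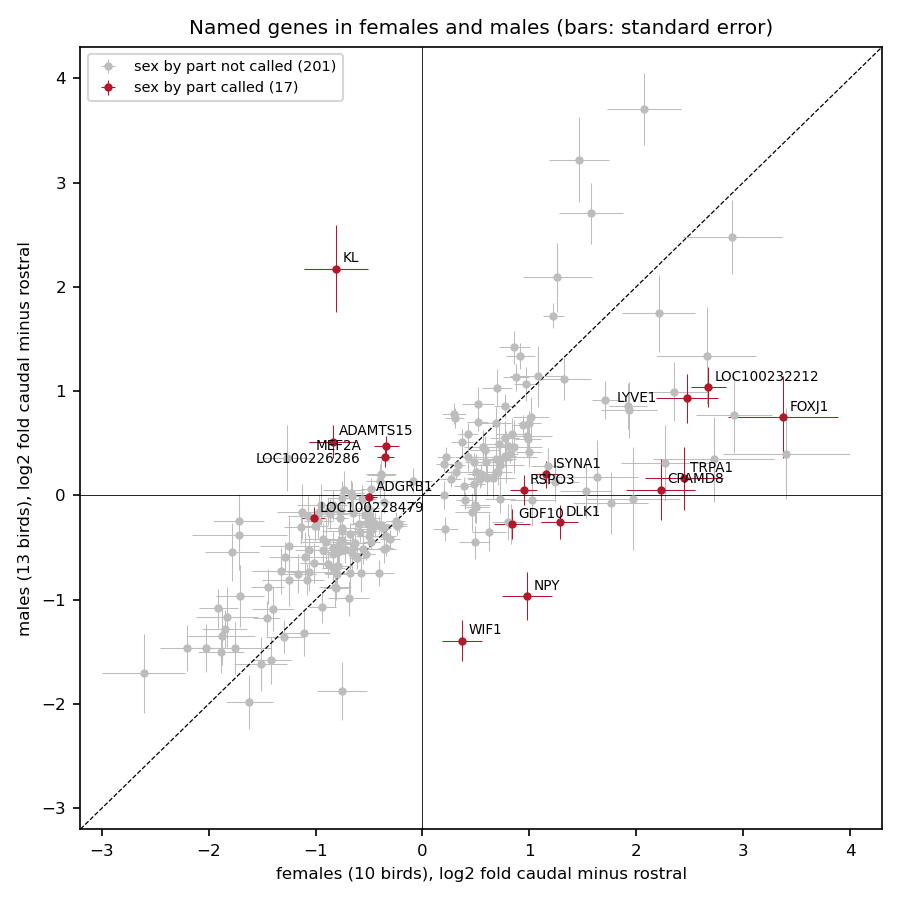
Each point is 1 of the 218 named genes, with the log2 fold of caudal over rostral hippocampus in 10 females on the horizontal and in 13 males on the vertical axis, standard errors as bars and equality as a dashed line. The 17 genes called for a difference between the sexes, 10 of them among the genes named for the smallest p-values of that test, are red and labelled; NPY and DLK1 lie right of 0 and below it, KL left of 0 and above it.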

How the data were processed

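Gene counts were deposited by the authors as 1 table of whole-number counts per gene and library; the aligner HISAT2 and the assembler StringTie are listed, versions unnamed, per the submitters' processing notes. Genome build, annotation, strand setting and the treatment of shared reads were not given in the sources used here, and reads of overlapping or antisense genes cannot be told apart. Of 21957 genes, 8162 had no count in the 20 libraries.

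The deposited counts were tested with edgeR 4.0.16 (R 4.3.3): TMM scaling, filterByExpr with a count minimum of 10 and a total of at least 15, a robust quasi-likelihood fit of bird and part, and Benjamini-Hochberg adjustment over 8834 genes at 0.05. The parts of a bird come from the same animal. Same-bird deviations from the group means correlated at 0.00766 to 0.281 (median 0.176) and those of different birds at a median of -0.0330. The sex by part test used 46 hippocampal libraries. Marker sums were compared as log2 (CPM + 1) by a two-sided exact sign-flip permutation test over 10 birds, in which the smallest possible p is 0.00195, adjusted over the marker lists.

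Members and gene lists were chosen with earlier results of these data known. Named genes were the 12 largest called differences per direction that had a symbol, at least 1 CPM on average and 9 birds on the same side, the 6 smallest p-values per direction, up to 4 called members per list and direction, a fixed set of 19 genes, and the 5 smallest p-values of the sex by part test per direction. Of the last, some are given only in the closing section. Some named genes are not reported here. Scripts were tested on simulated data. Alternatives used DESeq2 1.42.0, limma 3.58.1, RLE scaling, other filters, no bird block, bird 260 added, all 23 birds, the length trend removed, thinned counts and birds left out; the last settings (length, thinning, birds 4 and 14) were chosen after seeing the data.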

Additional observations from a re-analysis of the deposited data

Results flagged for a closer look

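Within 218 named genes, the 10 caudal minus rostral differences, on the log2 scale per bird, were searched for a bird that lay far from the rest. Such a bird was found in 21 genes (9.63%); chance flags about 1 in 20 groups. Bird 22 was apart in SST (-0.80), HTR1B (0.34), CBLN2 (0.89), RARB (0.42) and MEF2A (0.74). MEF2A, called lower in the caudal part, lost that call in edgeR's test with the length trend removed (-0.20, adjusted p = 0.186). Bird 18 was apart in CYGB (-4.73), the kainate receptor gene GRIK5 (1.49), the Wnt pathway transcription factor gene TCF7L2 (3.11) and KL (-5.22). Bird 13 was apart in NPTX2 (2.02), RSPO2 (-2.25) and CALB1 (0.44), bird 21 in COL27A1 (-0.97), COL11A1 (-0.62) and SLC1A3 (0.27), bird 4 in MTA3 (-0.04) and NRN1 (-0.38), bird 14 in GLIS1 (0.29) and DUSP4 (-2.44), bird 19 in FOS (1.73) and bird 1 in SLC2A1 (-1.28).

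In 17 of these genes the caudal minus rostral difference itself differed between the sexes by edgeR's interaction test, which called 96 of all 9499 genes (1.01%). Of the 17, 10 were among the genes named for having the smallest p-values in this same test, so their number is no result. The male minus female difference is given on the log2 scale. It was negative for FOXJ1 (-2.68), LYVE1 (-1.56), TRPA1 (-2.29), CPAMD8 (-2.18), LOC100232212 (-1.65), ISYNA1 (-0.97), NPY (-1.96), DLK1 (-1.55), RSPO3 (-0.90), WIF1 (-1.78) and the growth factor gene GDF10 (-1.13). It was positive for LOC100228479 (0.79), which the table describes as an inactive phospholipase C-like protein, KL (2.98), the metalloprotease gene ADAMTS15 (1.35), MEF2A (0.80), the adhesion receptor gene ADGRB1 (0.47) and LOC100226286 (0.71), a CEPU-1 gene.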

How the results depend on the processing

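The number of called genes stayed within 1.5 times of the value in the report under the 21 alternatives, from 3021 to 4023 genes, the latter with bird 260. The number of called genes with a log2 difference of at least 1, 389, was 220 to 626. Leaving out 1 bird at a time gave 3021 to 3788 called genes, 1466 to 1864 higher and 1554 to 1924 lower. Without the replicate block, that is with the birds not paired, 3244 genes were called (1574 higher, 1670 lower), and 3153 of the 3587 remained. DESeq2 called 3743 and limma voom 3624. With the length trend removed 3281 were called, 2752 of them shared, and without birds 4 and 14 there were 3989. Over 218 named genes and all alternatives, 4363 values kept direction and side of the threshold, 171 lost the call and 3 gained one. EGR1, not called in the report, changed sign in 3: 0.11 without birds 4 and 14, 0.0070 without bird 4 and 0.0060 without bird 18, in a range of -0.18 to 0.0070 over the birds left out 1 at a time. The cause was not tested.

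The count of sex by part calls, 96, was 178 with limma voom and 247 with bird 260. Among marker sums, taking the mean log2 over the markers in place of the summed level gave -0.16 for pallial, -0.083 for GABAergic, -0.13 for habenular and -0.092 for astrocyte markers, none past the threshold; -0.32 for medium spiny neuron and 0.24 for cerebellar markers, both now past it; and a change of sign for septal (0.29), oligodendrocyte precursor (-0.073) and choroid plexus markers (0.16). A mean of logs gives each marker equal weight, whereas a sum follows its most abundant gene. With bird 260 the septal sum was at 0.024 and the habenular sum at -0.081, the latter no longer past the threshold. Depth, at most 4973555 counts per library, limits genes of low level, which were left untested or carry wide errors, and the caudal libraries were the shallower ones in 8 birds.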

Other observations

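Some receptor and patterning genes had too few counts for the test and are given as raw counts in the 10 libraries of each part. The vasotocin receptor gene AVPR1A had 1 to 11 counts in the caudal libraries (median 3.5) and 1 to 50 in the rostral ones (median 27.5). The adenosine receptor gene ADORA2A had 0 to 18 (median 1) and 1 to 37 (median 26.5). The serotonin receptor gene HTR2A had 0 to 17 (median 6.5) and 7 to 44 (median 14.5), and the muscarinic receptor gene CHRM2 had 1 to 8 (median 5.5) and 4 to 30 (median 12). DBX1, a homeobox gene of septal and ventral pallial progenitors, ran the other way, with 0 to 22 (median 6) in the caudal and 0 to 5 (median 0.5) in the rostral libraries. The ranges overlapped in all 5 genes, and no test was made. These genes are a selection. Other untested receptor genes had higher caudal medians, among them the serotonin receptor gene HTR2B (9 against 5.5) and the melanocortin receptor gene MC4R (8 against 4.5). Raw counts are not scaled for depth, and the caudal library was the shallower one in 8 birds, which lowers caudal counts.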
